A study of Mus musculus with 6 samples.

Results

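A set of 9 genes that mark regulatory T cells (Tregs) or Tregs inside tumours were followed on 6 arrays of Tregs sorted from tumour-bearing mouse colon. They were chosen by name: Izumo1r, Gpr83, Capg, Swap70, Samsn1, Layn, Cd177, Mageh1 and Cd80. Each had 1 row among the 19494 genes of the deposited table, so all 9 were measured. All mice were Foxp3-RFP x GPR15-GFP double reporters, in which red marks cells that express Foxp3, the transcription factor of Tregs, and green marks cells that express GPR15, a receptor that brings T cells to the large intestine. Tumours were induced with azoxymethane (AOM), a carcinogen, and dextran sulfate sodium (DSS), which injures and inflames the colon. CD4-stained RFP+ cells of the tumorous colonic lamina propria were sorted into a GPR15-GFP+ fraction (3 arrays) and a GPR15-GFP- fraction (3 arrays), and the titles number the arrays of both fractions 1, 5 and 6. No untreated or tumour-free group was analysed here. Age, sex, the number of animals behind an array, and whether the green reporter replaces the Gpr15 coding sequence are not stated in the labels. The labels also do not say that arrays of a fraction came from separate animals, and a p-value then speaks only to the spread among these 6 arrays. The design asks how tumour-associated Tregs with GPR15 differ from those without it.

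Tregs restrain other immune cells and are set apart by a stable programme of surface receptors and regulators. Izumo1r encodes Juno, a GPI-anchored relative of the folate receptors, and Gpr83 a G protein-coupled receptor; both are enriched in Tregs over other CD4 T cells. Capg caps the growing ends of actin filaments, Swap70 binds actin and phosphoinositides and acts with Rac GTPases, and Samsn1 is an SH3 and SAM domain adaptor that dampens lymphocyte activation. Layn (a C-type lectin that binds hyaluronan), Cd177 (a GPI-anchored glycoprotein best known from neutrophils) and Mageh1 (of the MAGE family) are known as markers of tumour-infiltrating Tregs. Cd80 encodes a B7 ligand that binds CD28 and CTLA-4.

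Izumo1r and Swap70 were the members whose fractions did not overlap in the deposited values, in opposite directions, and their promoters are shown for that reason. The fractions did overlap for Izumo1r after quantile normalization and for Swap70 with arrays centred on their medians. Each run gives the 250 bases before the RefSeq gene start (build GRCm38.p6), 5′ to 3′ on the gene's strand, with matches to the searched motifs in capitals.
Izumo1r, chr9:14903768-14904017 (- strand): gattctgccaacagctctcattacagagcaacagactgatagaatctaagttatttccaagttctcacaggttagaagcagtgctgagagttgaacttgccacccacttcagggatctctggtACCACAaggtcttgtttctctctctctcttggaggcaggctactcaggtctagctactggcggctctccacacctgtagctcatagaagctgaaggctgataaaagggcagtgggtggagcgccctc
Swap70, chr7:110221453-110221702 (+ strand): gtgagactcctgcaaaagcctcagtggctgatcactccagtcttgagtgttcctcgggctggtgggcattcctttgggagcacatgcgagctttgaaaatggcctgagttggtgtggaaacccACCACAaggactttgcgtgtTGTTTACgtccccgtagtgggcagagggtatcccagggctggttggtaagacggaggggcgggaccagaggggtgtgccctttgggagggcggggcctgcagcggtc
The motifs, searched on both strands, were AP-1 (TGANTCA), ETS (CCGGAA), forkhead (TGTTTAC), RUNX (TGTGGT) and the TATA box, whose letters are TATAAA. Both promoters held 1 RUNX match, beginning 127 bases before the start, and 14% of 32851 mouse promoters of the same length held one. Swap70 also held 1 forkhead match, 107 bases before the start, a match found in 3.17% of promoters. All 9 members had a promoter in the table; RUNX and forkhead letters each occurred in 2 of the 9, and AP-1, ETS and TATA box letters in 1 each, against 6.75%, 12% and 12.4% of all promoters for the last 3. A match is a run of letters in this window and was not tested as a binding site.

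The arrays were deposited as log2 signals with medians of 6.49 to 6.64. The arrays numbered 1 had a narrower spread (SD 1.63 in both fractions) than the other 4 (1.74 to 1.87). Gpr15 itself lay lower in the arrays labelled GPR15-GFP+, at 8.23, 7.86 and 8.28 for the numbers 1, 5 and 6, than in those labelled GPR15-GFP-, at 8.51, 9.12 and 8.70 (difference -0.65 ± 0.22 SE; limma adjusted p = 0.773). The transcript thus ran opposite to the label, in a difference that did not pass. Whether the reporter replaces the Gpr15 coding sequence is not stated, and the reason was not tested. Every direction below is therefore that of the labelled fractions. Of 9 measured T cell markers, 9 lay above the median signal of all genes, among them Cd3d and Ptprc (CD45). Of 23 measured Treg core genes, 22 did so, but Il2ra, which encodes the Treg surface receptor CD25, lay at percentile 20.0, between 4.64 and 5.42 on all arrays. Foxp3 was not analysed here. In sorted bulk cells, fewer cells with a transcript and less of it per cell cannot be told apart.

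No member passed the test between fractions. With limma, 0 of 9 members and 0 of 19494 genes (0%) had an adjusted p under 0.05, and the members' adjusted p-values lay between 0.773 and 1.00. At an unadjusted p under 0.05 limma found 0 members, against 6.23% of all genes. The fractions did not overlap for 1 member above 0 (Izumo1r; 4.12% of all genes) and 1 below 0 (Swap70; 9.17% of all genes), or 2 in both directions against 13.3% of all genes. The sign was the same in all 3 numbers for 6 members, above 0 for Izumo1r and Gpr83 (13.4% of all genes) and below 0 for Swap70, Layn, Mageh1 and Cd80 (23.6% of all genes). The members' median difference was -0.04, beside -0.06 over all genes. With the title number as a block, the unadjusted count was 3 members, Izumo1r and Gpr83 higher (6.14% of all genes) and Layn lower (6.23% of all genes; 12.4% in both directions), and the smallest adjusted p of a member was 0.362. In that fit the 95% intervals ran from 0.03 to 0.77 for Izumo1r, 0.02 to 0.91 for Gpr83 and -0.95 to -0.12 for Layn. They ran from -0.40 to 0.33 for Capg, -0.64 to 0.13 for Swap70 and -0.37 to 0.42 for Samsn1. For Cd177 the interval ran from -0.59 to 0.59, for Mageh1 from -0.68 to 0.04 and for Cd80 from -0.62 to 0.15. Intervals and SEs given for single members below are without the block, and for Capg and Cd80 they are much wider than with it. With array weights, whose estimate did not converge, Izumo1r, Gpr83 and Layn passed, as did 11.2% of all genes (limma adjusted p = 0.0385, 0.0419 and 0.0388; over all settings up to 1.00). Without both arrays numbered 1, the fractions did not overlap for 7 members, 3 above and 4 below 0, against 56% of all genes.

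**Figure D1:**
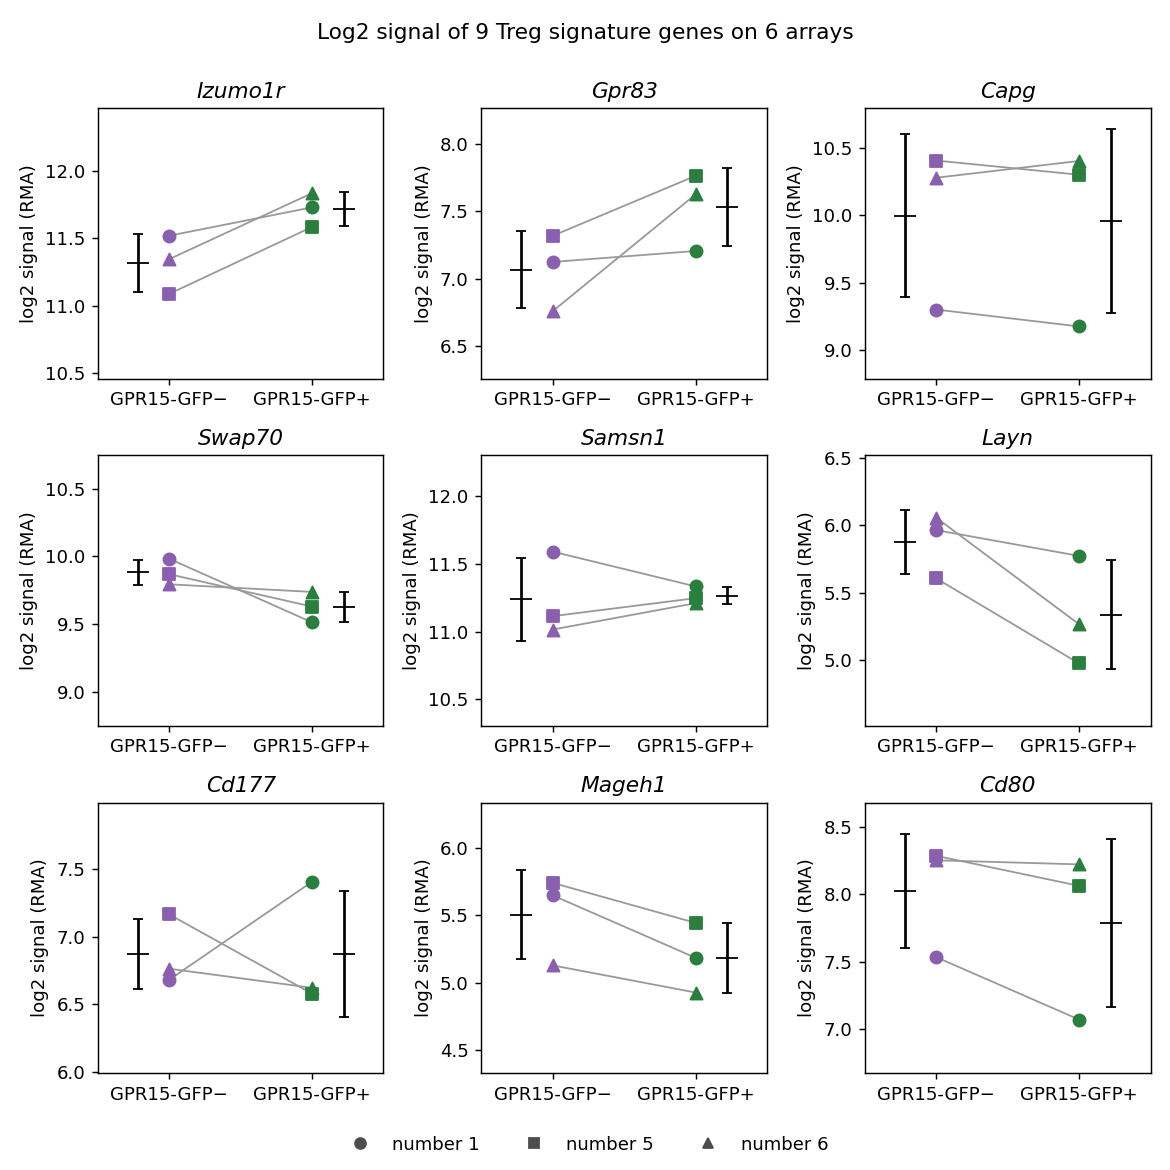
Log2 signal of each of the 9 genes on the 6 arrays, GPR15-GFP- on the left and GPR15-GFP+ on the right of each panel, with grey lines joining arrays of the same number and black bars for the mean ± SD (n = 3); each panel spans the same number of log2 units. The fractions are apart in the panels of Izumo1r and Swap70, and the arrays numbered 1 lie below the others in those of Capg and Cd80.

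Izumo1r, the Treg-enriched folate receptor relative, gave log2 signals of 11.52, 11.09 and 11.35 in GPR15-GFP- arrays 1, 5 and 6 and of 11.73, 11.58 and 11.83 in GPR15-GFP+ arrays 1, 5 and 6. The lowest GPR15-GFP+ array lay just above the highest GPR15-GFP- array, and each GPR15-GFP+ array lay above its partner of equal number. The means were 11.72 ± 0.13 (SD, n = 3) and 11.32 ± 0.22 (SD, n = 3), a difference of 0.40 ± 0.18 (SE) or 1.32-fold. The 95% interval ran from -0.02 to 0.81, and limma's adjusted p was 0.773. By number the differences were 0.21, 0.49 and 0.49, smallest for the arrays numbered 1.

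Gpr83, the Treg-enriched receptor, lay on the same side. Its log2 signals were 7.13, 7.32 and 6.76 in GPR15-GFP- arrays 1, 5 and 6 and 7.21, 7.76 and 7.63 in GPR15-GFP+ arrays 1, 5 and 6. GPR15-GFP+ array 1 lay below GPR15-GFP- array 5, so the fractions overlapped. The difference was 0.46 ± 0.22 (SE), or 1.38-fold, with a 95% interval from -0.05 to 0.98 (limma adjusted p = 0.773). It was 0.08, 0.44 and 0.86 for the numbers 1, 5 and 6, again smallest in number 1.

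Among the actin and adaptor genes, Swap70 lay lower in the GPR15-GFP+ fraction. Its signals were 9.98, 9.87 and 9.79 in GPR15-GFP- arrays 1, 5 and 6 and 9.51, 9.63 and 9.74 in GPR15-GFP+ arrays 1, 5 and 6. The gap between the nearest arrays, both numbered 6, was 0.06. The difference was -0.26 ± 0.16 (SE), with a 95% interval from -0.62 to 0.11 (limma adjusted p = 0.773). By number it was -0.47, -0.24 and -0.06, here largest in number 1.

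Capg, the actin-capping gene, had a small difference between fractions beside a large one between numbers. Its signals were 9.30, 10.40 and 10.28 in GPR15-GFP- arrays 1, 5 and 6 and 9.18, 10.30 and 10.40 in GPR15-GFP+ arrays 1, 5 and 6. Both arrays numbered 1 lay about a log2 unit under the other 4. The difference between fractions was -0.04 ± 0.40 (SE), with a 95% interval from -0.97 to 0.90, and its sign turned when arrays were centred on their medians, with array weights, and without GPR15-GFP- replicate 5 (0.17), GPR15-GFP- replicate 6 (0.11), GPR15-GFP+ replicate 1 (0.36) or both arrays numbered 1 (0.0095). Samsn1 too had a small difference between fractions, with signals of 11.59, 11.11 and 11.02 in GPR15-GFP- arrays 1, 5 and 6 and of 11.33, 11.25 and 11.21 in GPR15-GFP+ arrays 1, 5 and 6. The 3 GPR15-GFP+ arrays lay close together inside the range of the GPR15-GFP- arrays, whose highest was array 1. The difference was 0.02 ± 0.20 (SE), with a 95% interval from -0.43 to 0.48, and it turned sign under 2 rescalings and without GPR15-GFP- replicate 5 (-0.04), GPR15-GFP- replicate 6 (-0.09) or GPR15-GFP+ replicate 1 (-0.01).

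Of the 4 tumour-Treg markers, Layn, Mageh1 and Cd80 lay below 0 and Cd177 close to 0, and the signs of Cd80 and Cd177 turned under some settings. Layn, the hyaluronan receptor, had the largest difference of the 9 genes in the deposited values; Gpr83 had the larger one with arrays centred on their medians (0.53 against -0.47), with quantile normalization (0.44 against -0.42) and with the intensity trend removed (0.51 against -0.41). Its signals were 5.96, 5.61 and 6.06 in GPR15-GFP- arrays 1, 5 and 6 and 5.77, 4.98 and 5.27 in GPR15-GFP+ arrays 1, 5 and 6. GPR15-GFP+ array 1 lay above GPR15-GFP- array 5, and the other GPR15-GFP+ arrays lay below all GPR15-GFP- arrays. The difference was -0.54 ± 0.24 (SE), a GPR15-GFP- signal 1.45-fold that of GPR15-GFP+, with a 95% interval from -1.10 to 0.03 (limma adjusted p = 0.773), and it was -0.19, -0.63 and -0.79 by number. It was -0.75 without GPR15-GFP+ replicate 1 and -0.36 without GPR15-GFP+ replicate 5. The row was dim, at percentile 27.9 of the mean signal, and genes of that signal were lower in GPR15-GFP+ in general: the trend over all genes was -0.13 at this level, and with it removed the difference of Layn was -0.41.

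Mageh1 was dimmer still, at percentile 23.3. Its signals were 5.65, 5.74 and 5.13 in GPR15-GFP- arrays 1, 5 and 6 and 5.18, 5.44 and 4.93 in GPR15-GFP+ arrays 1, 5 and 6. Every GPR15-GFP+ array lay below its partner, while the arrays numbered 6 lay lowest in both fractions. The difference was -0.32 ± 0.23 (SE), with a 95% interval from -0.84 to 0.21 (limma adjusted p = 0.797); it was -0.46, -0.30 and -0.20 by number and -0.19 with the intensity trend removed. It was -0.51 without GPR15-GFP- replicate 6 and -0.19 without GPR15-GFP+ replicate 6.

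Cd80, the B7 ligand, gave 7.53, 8.28 and 8.25 in GPR15-GFP- arrays 1, 5 and 6 and 7.07, 8.06 and 8.22 in GPR15-GFP+ arrays 1, 5 and 6. As for Capg, the arrays numbered 1 were the lowest of each fraction. The difference was -0.24 ± 0.34 (SE), with a 95% interval from -1.04 to 0.56 (limma adjusted p = 0.897), and it turned sign with array weights (0.02) and without GPR15-GFP+ replicate 1 (0.12). By number it was -0.46, -0.22 and -0.03.

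Cd177 had no common direction. Its signals were 6.68, 7.16 and 6.76 in GPR15-GFP- arrays 1, 5 and 6 and 7.41, 6.58 and 6.62 in GPR15-GFP+ arrays 1, 5 and 6. GPR15-GFP+ array 1 was the highest of the 6 and the other GPR15-GFP+ arrays the lowest. The differences by number were 0.72, -0.59 and -0.14, and their mean was -0.00084 ± 0.26 (SE), with a sign that turned under every rescaling. Without GPR15-GFP+ replicate 1 it was -0.27, and without both arrays numbered 1 it was -0.36; it was 0.15 without GPR15-GFP- replicate 5, 0.14 without GPR15-GFP+ replicate 5 and 0.12 without GPR15-GFP+ replicate 6.

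**Figure D2:**
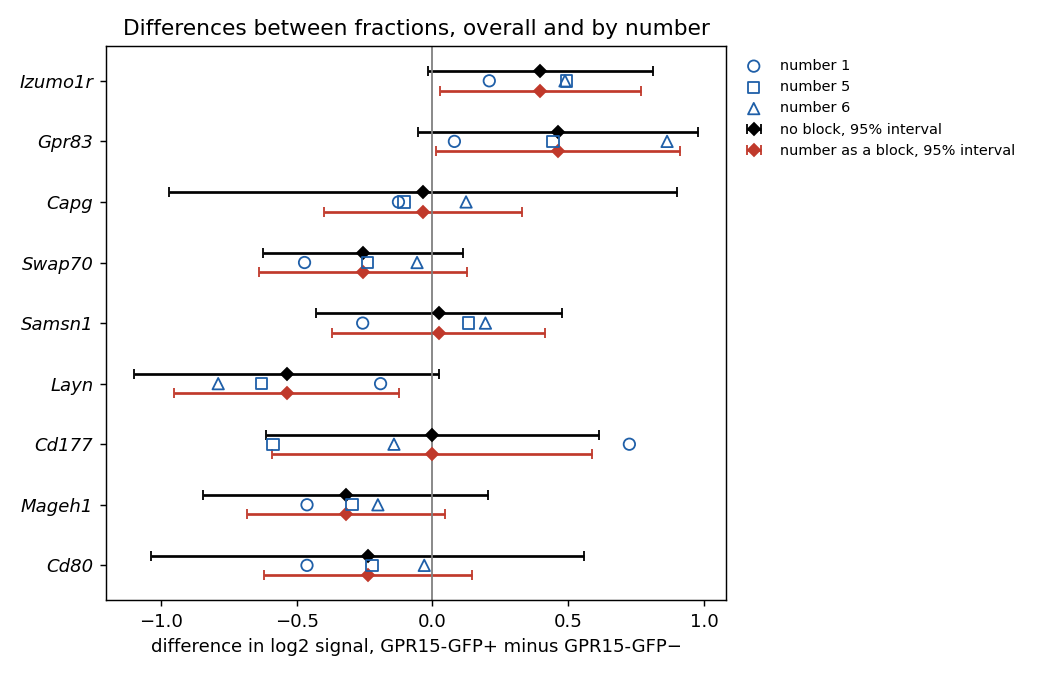
Difference in log2 signal, GPR15-GFP+ minus GPR15-GFP-, for each of the 9 genes: open symbols are single pairs of equal number, and diamonds with bars are limma's estimates with 95% intervals without (black) and with (red) the number as a block. All black intervals include 0, and the red ones of Izumo1r, Gpr83 and Layn lie to one side of it.

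The arrays were also compared by number, in a limma fit with fraction and number together, a test added after the values were seen. Over the 3 numbers, Capg passed (limma adjusted p = 0.0472), as 1.82% of all genes did, and no other member did. Against the mean of numbers 5 and 6, number 1 was lower by 1.11 ± 0.17 (SE) log2 units for Capg (difference -1.11; limma adjusted p = 0.0156) and by 0.90 ± 0.17 (SE) for Cd80 (difference -0.90; limma adjusted p = 0.0302). Of all genes, 5.63% were lower in number 1 by that test. After quantile normalization, which evens out the narrower spread of the arrays numbered 1, the differences were -0.76 for Capg and -0.79 for Cd80. Limma's adjusted p was then 0.0497 for Capg and 0.0496 for Cd80, and 3.06% of all genes were called lower. Over the 3 added scalings limma's adjusted p of these 2 genes lay between 0.0147 and 0.0497. With each array scaled to 1 mean and SD, Samsn1 also differed, higher in number 1 by 0.78 (limma adjusted p = 0.0442). In that setting 4.92% of all genes were called in either direction, and 3.56% were called lower. The number cannot be told apart from whatever else those arrays share.

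The share of the spread that lay between numbers was 98.7% for Capg, 89.2% for Cd80, 69.4% for Samsn1 and 66.1% for Mageh1. It lay mostly between fractions for Swap70 (69.3%) and Izumo1r (65.4%), and Gpr83 (49.5%) and Layn (49.7%) also had more between fractions than between numbers. For Cd177 most of the spread (78.2%) belonged to neither. Over all genes the median share was 49.1% between numbers and 15.2% between fractions. The share between numbers was the larger for 5 of the 9 members and for 72.1% of all genes. These shares are not adjusted for how many groups are compared. With more numbers than fractions, the share between numbers tends to be the larger even where neither differs, so the shares do not rank the 2.

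**Figure D3:**
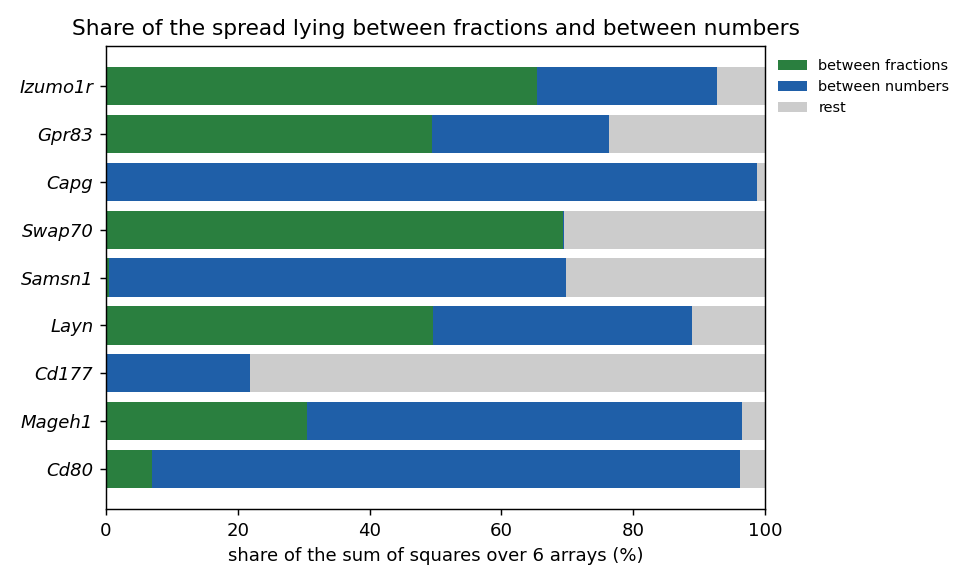
Share in percent of each gene's sum of squares over the 6 arrays that lies between the fractions (green), between the numbers 1, 5 and 6 (blue) and in neither (grey). Green leads for Izumo1r, Gpr83, Swap70 and Layn, blue for Capg, Samsn1, Mageh1 and Cd80, and grey for Cd177. The shares are not adjusted for there being more numbers than fractions.

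The members did not follow a common pattern over the arrays. Among their 36 pairs the Pearson correlation over the 6 arrays ran from -0.96 to 0.96 with a median of -0.05. Capg and Cd80 were the most alike (r = 0.96), both being low on the arrays numbered 1. Gpr83 and Layn were mirror images (r = -0.96), with ranks exactly reversed over the 6 arrays. The arrays share normalization, fractions and numbers, and r is given as a description only. Among 9402 genes above the median signal, the most alike were Msl1 for Izumo1r (r = 0.98), Zfp960 for Gpr83 (r = 0.996), Dynll1 for Capg (r = 0.998), Prap1 for Swap70 (r = 0.99), Gpat4 for Samsn1 (r = 0.98), Spata5l1 for Layn (r = 0.997), Slc25a25 for Cd177 (r = 0.99), Kctd6 for Mageh1 (r = 0.99) and Chmp7 for Cd80 (r = 0.996). With 6 arrays such values are easily reached: r was above 0.95 for 354 genes with Capg, 200 with Cd80, 109 with Layn and 4 to 28 with each of the others.

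The remaining genes of the Treg programme were taken from a list of core genes and a list of tumour-Treg genes that share some members. Of 23 measured core genes, 11 lay above 0 and 12 below, with a median difference of -0.08 beside -0.06 over all genes. By limma 0 passed the adjusted threshold, and 2 above and 3 below 0 had an unadjusted p under 0.05, against 2.79% and 3.44% of all genes. Penk, which encodes the opioid precursor proenkephalin, differed by -0.71 ± 0.21 (SE), from 12.51, 12.42 and 12.13 to 11.96, 11.41 and 11.56. Klrg1, a receptor of differentiated effector Tregs, differed by -0.77 ± 0.24 (SE), and Ikzf2, which encodes the Treg factor Helios, by -0.52 ± 0.19 (SE). Gbp2, an interferon-induced GTPase, lay at 6.97, 6.89 and 7.08 in GPR15-GFP- and between 7.54 and 8.27 in GPR15-GFP+, a difference of 0.96 ± 0.22 (SE). The fractions of these 4 genes, named for the smallest p of the list, did not overlap, and limma's adjusted p was 0.773 for each. Of the 23 core genes 4 had no overlap, 1 above and 3 below 0, against 4.12% and 9.17% of all genes.

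Of 27 measured tumour-Treg genes, 13 lay above 0 and 14 below, with a median of -0.02; 0 passed limma's adjusted threshold, and 2 in each direction had an unadjusted p under 0.05 (2.79% higher and 3.44% lower of all genes). Ccr8, a chemokine receptor that marks tumour Tregs, lay at 10.13, 10.51 and 10.45 in GPR15-GFP- arrays and at 9.05, 10.03 and 9.92 in GPR15-GFP+ arrays, a difference of -0.70 ± 0.28 (SE). Ccr8 lay below 0, like Layn, Mageh1 and Ikzf2, and so did 59.2% of all genes. Lag3, an inhibitory receptor for MHC class II, lay on the other side, at 6.48, 6.33 and 6.69 against 7.25, 7.60 and 7.86, a difference of 1.07 ± 0.21 (SE). Irf4, a transcription factor of effector Tregs, also lay higher, by 0.45 ± 0.19 (SE). None of these 3, named for their small p, overlapped between fractions, and limma's adjusted p was 0.773 for each of the 3. Of the 27 tumour-Treg genes 6 had no overlap, 4 above and 2 below 0, against 4.12% and 9.17% of all genes.

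**Figure D4:**
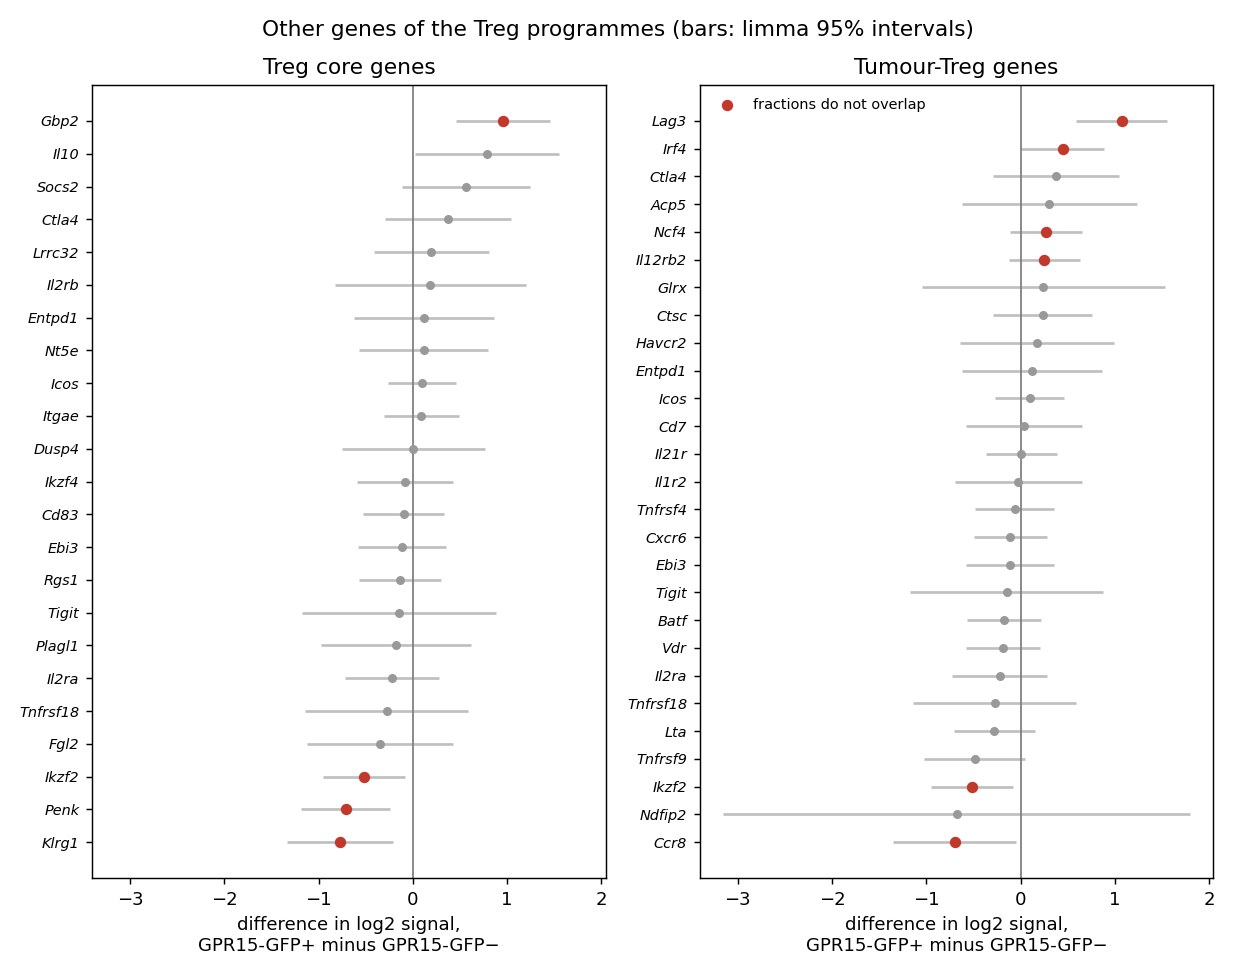
Difference in log2 signal, GPR15-GFP+ minus GPR15-GFP-, for 23 core and 27 tumour-Treg genes, with limma's 95% intervals as bars and in red the genes whose fractions do not overlap. Gbp2 lies highest and Klrg1 lowest of the core genes, and Lag3 highest and Ccr8 lowest of the tumour-Treg genes; the wide bar of Ndfip2 comes from GPR15-GFP+ array 1 at 4.11, with the other 5 arrays between 7.38 and 8.56.

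Relatives and partners of the 9 proteins were described in the same way: folate receptors, gelsolin family and capping proteins, Rac GTPases, SASH adaptors, hyaluronan receptors, MAGE genes and the B7 and CD28 family. Of 36 measured, 16 lay above 0 and 20 below, with a median of -0.02, and limma gave 1 in each direction an unadjusted p under 0.05 (2.79% higher and 3.44% lower of all genes) and 0 an adjusted one. Vil1, the gelsolin-family relative of Capg in gut microvilli and an epithelial marker, differed by -0.59 ± 0.21 (SE). Sash3, a lymphocyte adaptor of the same family as Samsn1, differed by 0.63 ± 0.24 (SE), and Cd44, which like Layn binds hyaluronan, by -0.45 ± 0.23 (SE). Icosl, the ligand of ICOS and a relative of Cd80, differed by -0.34 ± 0.23 (SE). The fractions of Vil1 and Sash3 did not overlap, and those of Cd44 and Icosl did. Of the 36 relatives 3 had no overlap, 2 above and 1 below 0, against 4.12% and 9.17% of all genes.

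Several members are also expressed by other cells of the gut, so markers of those cells are given beside them. Of all 19494 genes 59.2% lay below 0, with a median of -0.06, and of 9 T cell markers 2 did, with a median of 0.15. The median was -0.20 for neutrophil, -0.16 for macrophage and -0.21 for dendritic cell markers. It was -0.19 for B and plasma cell, -0.24 for epithelial and -0.10 for stromal markers. Of 11 markers of neutrophils, which carry CD177, 3 lay above the median signal, 9 lay below 0, and S100a8 sat at percentile 6.14; their summed linear signal ran from 594.5 to 804.5 in GPR15-GFP+ arrays and from 727 to 824.5 in GPR15-GFP- arrays. Elane, the brightest of them, differed by 0.0025 and Csf3r by -0.23. Of 10 macrophage markers 2 lay above the median signal, Fcgr1 and C1qb, and 8 lay below 0 (summed signal 569 to 769 in GPR15-GFP+ and 676 to 778 in GPR15-GFP- arrays). Of 11 dendritic cell markers 6 lay above the median signal and 9 below 0, led in signal by Ccr7, which T cells also express, and H2-Eb1 (summed signal 2020 to 3103 and 2475 to 3046). Of 10 B and plasma cell markers 2 lay above the median signal and 7 below 0, with Blk at -0.37 and Derl3 at -0.06 (summed signal 601 to 715 and 765 to 842). Epithelial markers lay below 0 in 11 of 13, with Lgals4 at 0.08 and Phgr1 at -0.51 (summed signal 1062 to 1472 and 1361 to 1533), and stromal markers in 8 of 11, with Col1a1 at -0.23 and Pecam1 at 0.45 (summed signal 1248 to 1355 and 1173 to 1371). Their part in the members' differences was not tested.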

How the data were processed

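Expression was measured on 1-colour Affymetrix arrays of biotin-labelled RNA from 3 GPR15-GFP+ and 3 GPR15-GFP- Treg samples. The authors deposited log2 values per probe set made with RMA, per the submitters' processing notes; the software version, genome build and detection calls are not given in the sources used here. RMA as commonly run evens out the distributions of arrays, which can hide a shift of all genes. Of 22142 rows, 19527 had 1 gene symbol in the platform annotation, 0 had several and 2615 none. The row with the highest mean was kept for 33 genes with several rows, leaving 19494 genes.

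Differences are GPR15-GFP+ minus GPR15-GFP- from limma 3.58.1 in R 4.3.3 (lmFit, eBayes, no block, 2-sided, Benjamini-Hochberg over all genes, threshold 0.05). The code was tested on simulated data with independent normal noise, the same spread on all arrays and no effect of the number. That run does not check the fit where arrays differ in spread or by number. An exact permutation test of 3 against 3 arrays cannot go below 0.1, so it was not used. Equal title numbers were taken to pair samples in the block fit and in the differences by number, but not in the main fit. The ground for pairing was that deviations from the fraction means correlated within a number at 0.319 to 0.567. That was over the mark of 0.1 for every number. Across numbers, GPR15-GFP+ 5 with GPR15-GFP- 6 gave 0.315 and GPR15-GFP+ 6 with GPR15-GFP- 5 gave 0.213. These correlations part number 1 from the rest and hardly 5 from 6. The Y chromosome gene Uty did part 5 from 6 in both fractions. In GPR15-GFP- it gave 8.29 on array 5 and 4.60 on array 6. In GPR15-GFP+ it gave 8.97 on array 5 and 4.27 on array 6. The arrays numbered 1 gave 7.48 (GPR15-GFP-) and 7.65 (GPR15-GFP+). By this Y chromosome gene, number 6 differed from numbers 1 and 5 in both fractions, and the labels do not state sex. The labels also do not say what the numbers mark. Beyond Uty, whether different numbers stand for different animals was not tested. Members and lists were chosen with earlier results of these data known. Named beside the 9 members and Gpr15 were the 4 genes with the smallest p of the core, tumour-Treg and relatives lists, the 2 brightest markers of each cell type and, per member, the most correlated gene above the median signal; Il2ra, S100a8 and Ndfip2 were named after their values were seen. Signals of different probe sets are not compared as amounts. Alternatives were a block, 3 rescalings, a filter, another row rule, array weights, an intensity-trended prior and leaving out arrays.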

Additional observations from a re-analysis of the deposited data

How the results depend on the processing

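The members' differences were recomputed under 17 other settings, and of 151 values 125 kept their sign and their side of the threshold and 23 turned sign. Signs turned for Capg when arrays were centred on their medians (0.034), with array weights (0.18) and without both arrays numbered 1 (0.0095), for Samsn1 with quantile normalization (-0.035), with the intensity trend removed (-0.015) and without both arrays numbered 5 (-0.031) or 6 (-0.062), for Cd177 with centring (0.069), quantile normalization (0.089), the trend removed (0.084) and without both arrays numbered 5 (0.29) or 6 (0.069), and for Cd80 with array weights (0.017). With 1 array left out, Capg ran from -0.38 to 0.36, Samsn1 from -0.089 to 0.20, Cd177 from -0.27 to 0.15 and Cd80 from -0.48 to 0.12. The signs of Izumo1r, Gpr83, Swap70, Layn and Mageh1 did not turn under any setting in which they were tested; Layn and Mageh1 were not among the genes left by the filter on dim genes.

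Array weights made the 3 values that crossed the threshold: Izumo1r 0.53, Gpr83 0.61 and Layn -0.62, with limma adjusted p of 0.0385, 0.0419 and 0.0388, against adjusted p of 0.157 or more under the other settings for each. The weights ran from 0.191 (GPR15-GFP+ array 1) to 6.56 (GPR15-GFP+ array 6), the tool reported that their estimate had not converged, and 2174 genes (11.2%) then passed. No gene passed under any other setting. Genes at an unadjusted p under 0.05 numbered 1214, and 2411 with the replicate block, 713 with dim genes left out (of 11696 tested), 6534 with array weights, 668 to 4351 with 1 array left out (the highest without GPR15-GFP+ replicate 1), and 4101, 367 and 346 without both arrays numbered 1, 5 or 6. Members at that threshold numbered 3 with the replicate block (12.4% of all genes), 1 with centring (1174 of 19494 genes) and 4 with array weights (33.5% of all genes). Without both arrays numbered 1 they numbered 3 (21% of all genes). With 1 array left out they numbered 0 to 2, the highest without GPR15-GFP+ replicate 1 (22.3% of all genes). Members whose fractions did not overlap numbered 1 with centring (Izumo1r) and 1 with quantile normalization (Swap70). They numbered 7 and 4 without both arrays numbered 1 or 5, and 2 to 5 with 1 array left out (5 without GPR15-GFP+ replicate 1). The shares of all genes without overlap were 12.7% with centring, 11.7% with quantile normalization, 56% and 27.6% without both arrays numbered 1 or 5, 47.8% without GPR15-GFP+ replicate 1, and 18.4% to 21.4% with any other array left out. The median of the core list went from -0.08 to -0.011 with centring, -0.066 with the trend removed, -0.038 with dim genes left out, -0.02038 with array weights, -0.17 to 0.088 with 1 array left out, and -0.049, -0.13 and -0.0027 without both arrays numbered 1, 5 or 6. That of the tumour-Treg list went from -0.02 to 0.047 with centring, -0.090 with quantile normalization, -0.12 to 0.12 with 1 array left out, and 0.13 and -0.12 without both arrays numbered 1 or 5. The cause of these changes was not tested. Signal over background was not available to limit the dim rows of Layn and Mageh1.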

Other observations

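Mageh1 lies on the X chromosome, and the arrays numbered 6 were the lowest of each fraction for it. Uty, a gene of the Y chromosome, gave 4.60 (GPR15-GFP-) and 4.27 (GPR15-GFP+) on those arrays, against 7.48 to 8.97 on the other 4. Number 6 minus number 5 was -0.56 ± 0.19 (SE) for Mageh1 (limma adjusted p = 1.00) and -4.20 ± 0.26 (SE) for Uty (limma adjusted p = 0.0105), in a comparison in which 0.0103% of all genes passed. Whether what Uty marks bears on Mageh1 was not tested.

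In the core list, Il10, which encodes the suppressive cytokine interleukin-10, lay at 8.55, 9.27 and 8.95 in GPR15-GFP- arrays 1, 5 and 6 and at 9.15, 10.38 and 9.61 in GPR15-GFP+ arrays 1, 5 and 6. Each GPR15-GFP+ array lay above its partner, by 0.59, 1.11 and 0.66, while the fractions overlapped and the difference of 0.79 ± 0.33 (SE) did not pass (limma adjusted p = 0.773). It was named after its value was seen.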
